A study of Mus musculus with 72 samples.

Results

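H3K27ac, the acetylation of lysine 27 on histone H3, was mapped by ChIP-seq in mouse embryonic fibroblasts (MEFs) that carried HMGN1 and HMGN2 or lacked both. The 4 H3K27ac libraries, out of 72 samples in the series, were 2 biological replicates of wild type cells (WT, Hmgn1+/+n2+/+) and 2 of double knockout cells (DKO, Hmgn1-/- n2-/-). All came from the C57BL/6 strain, and no group received a treatment. The loss is constitutive, because the MEFs were derived from WT mice or from mice lacking both proteins, and the sources used here do not give the number of embryos behind a library. Peaks that overlapped by at least 1 bp in any of the 4 libraries, called WT1, WT2, DKO1 and DKO2 below, were merged into 104443 sites. Of these, 42234 were called in all 4 libraries (shared sites), 6084 had a peak in WT1 and WT2 but none in DKO (WT-only sites), and 4593 had one in DKO1 and DKO2 but none in WT (DKO-only sites).

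H3K27ac is deposited mainly by the acetyltransferases p300 and CBP, is removed by histone deacetylases, and marks active promoters and enhancers. HMGN1 and HMGN2 are abundant nucleosome-binding proteins that bind without preference for a DNA sequence, concentrate at regulatory sites of open chromatin, and compete with the linker histone H1. In fibroblasts the mark covers genes of the extracellular matrix, of the actomyosin cytoskeleton and of the mesenchymal transcription factors, and many fibroblast enhancers carry the AP-1 motif TGANTCA, which dimers of FOS and JUN proteins bind.

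The labelled cell type was checked on promoters, taken as sites no farther than 1000 bp from a protein-coding transcript start. All 9 fibroblast markers in the list had a called promoter in each library, and none of the 11 annotated markers of pluripotent cells had one in any. The lists for blood, endothelial, epithelial, neural and muscle cells had between 1 and 3 called promoters per library. In bulk chromatin, a change in the share of cells that carry a mark and a change in its amount per cell cannot be told apart.

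Sequences are given first for 9 sites on which the results below turn, all on the plus strand of mm9 (NCBIM37). The stretches beside Ktn1, Kif2b, St8sia2, Pappa and Galnt10 show in capitals the AP-1 motif closest to the point of highest signal (the summit), and those of Gm8220, Depdc1b and Ddc, which are centered on the summit, hold no such motif and no capitals. At Ktn1 the motif lay 237 bp from the summit and outside the called peak, which starts inside the printed stretch. Of the distal sites with the largest differences by both measures, from which the shared examples were taken, 2 of 10 lower and 1 of 10 higher sites held the motif. Capitals in Hmgn2 mark the coding part of exon 1, whose start codon reads CAT here because the gene lies on the minus strand. The WT-only sites are Gm8220 (chr14:44834821-44835021), Ktn1 (chr14:48373396-48373596) and Hmgn2 (chr4:133523591-133523724).
Gm8220: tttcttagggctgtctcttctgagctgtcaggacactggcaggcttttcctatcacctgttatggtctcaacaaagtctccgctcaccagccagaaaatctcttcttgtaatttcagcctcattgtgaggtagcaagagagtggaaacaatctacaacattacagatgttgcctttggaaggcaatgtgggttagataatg
Ktn1: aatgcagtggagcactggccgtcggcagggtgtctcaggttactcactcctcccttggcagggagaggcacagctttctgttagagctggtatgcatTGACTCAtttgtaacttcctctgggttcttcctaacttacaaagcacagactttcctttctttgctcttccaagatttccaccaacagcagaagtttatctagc
Hmgn2: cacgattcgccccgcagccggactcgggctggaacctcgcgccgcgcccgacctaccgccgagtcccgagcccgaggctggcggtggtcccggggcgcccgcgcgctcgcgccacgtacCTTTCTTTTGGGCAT
The DKO-only sites are Depdc1b (chr13:109083631-109083831) and Kif2b (chr11:91046565-91046765).
Depdc1b: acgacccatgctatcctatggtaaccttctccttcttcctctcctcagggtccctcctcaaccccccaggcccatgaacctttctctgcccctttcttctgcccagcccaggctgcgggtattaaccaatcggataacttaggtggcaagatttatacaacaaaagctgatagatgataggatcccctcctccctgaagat
Kif2b: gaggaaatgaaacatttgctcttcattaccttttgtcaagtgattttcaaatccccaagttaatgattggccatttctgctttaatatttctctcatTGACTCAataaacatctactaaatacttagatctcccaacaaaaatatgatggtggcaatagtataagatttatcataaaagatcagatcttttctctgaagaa
The shared distal sites are St8sia2 (chr7:81210650-81210850) and Pappa (chr4:64259938-64260138), lower in DKO, and Galnt10 (chr11:57508086-57508286) and Ddc (chr11:11763108-11763308), higher in DKO.
St8sia2: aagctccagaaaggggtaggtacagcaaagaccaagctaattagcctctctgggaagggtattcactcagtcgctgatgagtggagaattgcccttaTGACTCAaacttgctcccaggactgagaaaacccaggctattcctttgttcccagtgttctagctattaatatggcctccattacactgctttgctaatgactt
Pappa: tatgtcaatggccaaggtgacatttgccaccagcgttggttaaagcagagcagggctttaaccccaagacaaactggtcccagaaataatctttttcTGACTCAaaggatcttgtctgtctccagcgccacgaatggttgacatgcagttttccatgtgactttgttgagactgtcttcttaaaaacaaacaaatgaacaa
Galnt10: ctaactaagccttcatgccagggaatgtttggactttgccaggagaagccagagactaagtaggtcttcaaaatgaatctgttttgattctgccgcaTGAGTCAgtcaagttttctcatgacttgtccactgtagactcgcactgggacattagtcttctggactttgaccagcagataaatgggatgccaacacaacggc
Ddc: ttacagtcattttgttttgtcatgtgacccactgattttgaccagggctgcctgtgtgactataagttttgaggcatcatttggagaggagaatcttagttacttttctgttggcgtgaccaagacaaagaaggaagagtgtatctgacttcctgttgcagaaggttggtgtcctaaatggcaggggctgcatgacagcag

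The files hold peaks and not reads, so the depth of a library is known only through the peaks themselves. Fold enrichment is the ratio of the pileup to the local background that the authors' peak caller expected, each with 1 added. The pileup is the number of stacked reads at a summit. Both terms could be solved from the deposited fold enrichment and p value. The lowest background of a library, which scales with its depth, was 1.64 and 1.44 stacked reads in WT and 1.77 and 1.87 in DKO. The median pileup at shared sites was 28 and 25 reads in WT and 30 and 31 in DKO, so each library was divided by its own median before pileups were compared. The median local background there was 2.45 and 2.21 in WT and 2.86 and 3.11 in DKO. Both measures were thus higher in both DKO libraries, a difference that the exact permutation test, with 2 libraries against 2, could not place below p = 0.333.

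Peaks at the targeted genes followed the labels at Hmgn2 only. Hmgn2 (ENSMUSG00000003038.9, chr4:133520653-133524565, minus strand) had 3 promoter sites, all WT-only, with pileups of 23 and 21, 41 and 36, and 16 and 11 reads in WT1 and WT2. No DKO library had a peak at any of them, which matches the labels. Hmgn1 (ENSMUSG00000040681.8, chr16:96342225-96349336, minus strand) kept both of its promoter sites in DKO. The first had pileups of 58, 58, 103 and 99 reads in WT1, WT2, DKO1 and DKO2. Both DKO values stood above both WT values, and the pileup relative to the library median rose by 0.60 ± 0.14 on the log2 scale (SE, limma adjusted p = 0.0122), whereas fold enrichment did not pass the threshold (adjusted p = 0.0904), nor did pileup without WT1, DKO1 or DKO2 (adjusted p = 0.0609, 0.146 and 0.0571). The second, with 43 and 47 reads in WT and 64 and 66 in DKO, passed by neither pileup (0.33 ± 0.17, adjusted p = 0.308) nor fold enrichment (adjusted p = 0.262). A peak at a promoter reports the mark on chromatin left in the locus and checks neither the allele nor the protein.

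DKO peaks were wider, with more of the very wide ones, although they were fewer. In WT, 2848 and 2562 peaks exceeded 2000 bp, against 3112 and 3424 in DKO, which was 3.19% ± 0.24 (SD, n = 2) and 4.23% ± 0.26 of the peaks (exact permutation p = 0.333, the smallest this design allows). The difference of 29.5 bp in the median width, DKO minus WT, was 33.5 bp among peaks with a −log10 q of at least 5. It was -3 bp among the 76968 peaks of lowest p in each library, with medians of 418 and 403 bp in WT and 400 and 415 bp in DKO. The direction of the width difference thus turned when each list was held to the same number of peaks, and not under the stricter q threshold.

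The numbers of sites by pattern of calls show how often the libraries of a genotype agreed. A call also depends on the local background, which was more alike within than between genotypes at shared sites, as described below. Its part in these counts was not tested. A site could be called in exactly 2 libraries in 6 ways. The 4 ways that pair a WT with a DKO library gave between 1302 and 1825 sites each, and both pairs of the same genotype gave more, 6084 for WT and 4593 for DKO. Calls in a single library were more numerous than either, with 10382 sites in WT1, 9382 in WT2, 6838 in DKO1 and 7759 in DKO2. WT-only sites were 5.83% of all sites and DKO-only sites 4.4%. Which class was larger turned with the length of the lists, since with the 76968 peaks of lowest p in each library there were 4506 WT-only and 5599 DKO-only sites.

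**Figure D1:**
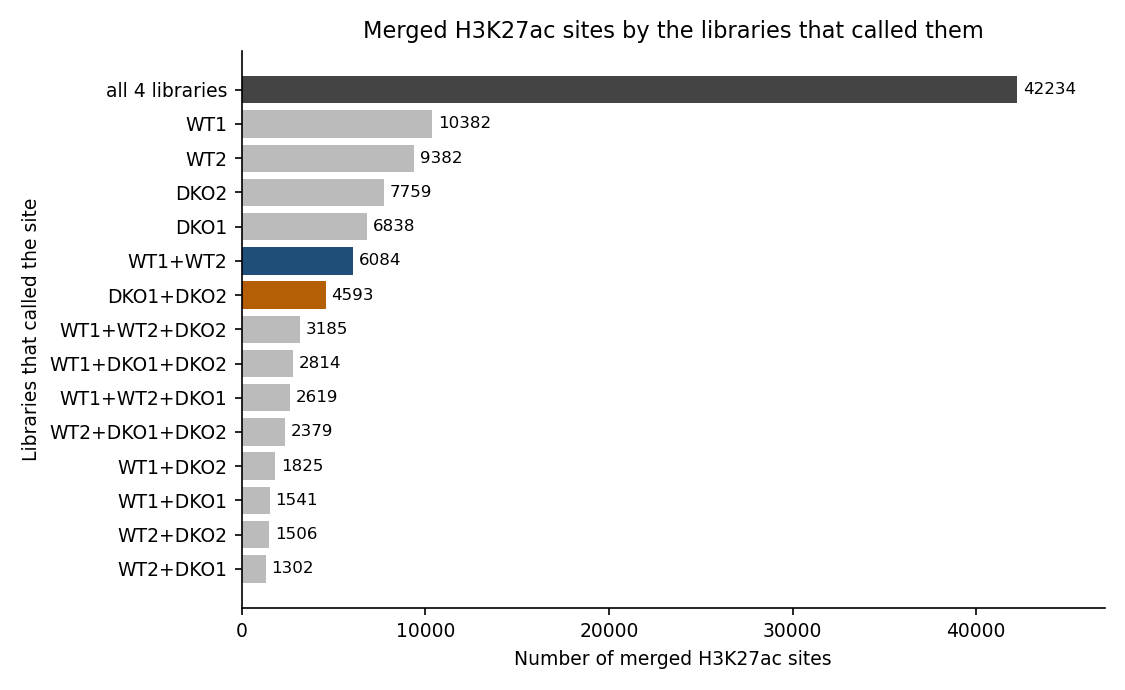
Number of merged H3K27ac sites (horizontal axis) for each set of libraries that called them (vertical axis). Sites called in all 4 libraries number 42234, those called in both WT libraries alone 6084, in both DKO libraries alone 4593, and each pair of a WT with a DKO library has at most 1825.

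One-genotype sites were narrow, weak and distal compared with shared sites. Their median width was 358 bp in WT-only and 367 bp in DKO-only sites, against 938 bp in shared sites, and 3 WT-only and 1 DKO-only site exceeded 2000 bp, against 6111 shared sites. Median fold enrichment was 4.83 and 4.82 in the WT libraries at WT-only sites, 4.6 and 4.53 in the DKO libraries at DKO-only sites, and between 7.68 and 8.19 at shared sites. The median pileup at WT-only sites was 15 and 14 reads, and at DKO-only sites 16 in both DKO libraries. Their median −log10 q lay between 5.94 and 6.47, against 16.2 to 18.4 at shared sites, and a missing call in the other genotype is not a measured absence of the mark. The 51532 sites with any other pattern of calls had these traits too, with a median width of 247 bp and median fold enrichments of 4.29 to 4.6. Promoters made up 8.03% of them, against 8.6% of WT-only, 5.97% of DKO-only and 34.6% of shared sites.

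WT-only sites lay closer to genes than DKO-only sites. The median distance to the nearest protein-coding transcript start was 22959.5 bp for WT-only and 34230 bp for DKO-only sites, against 9998 bp for shared sites. Introns held 55.9% of WT-only, 51.5% of DKO-only and 48.3% of shared sites, and 38.9%, 44.8% and 38.4% were intergenic. By chromosome, WT-only sites took the largest share of the sites of chromosome 14, 7.61%, and the smallest share among those of the X chromosome, 3.36%, leaving out the Y chromosome with its 10 sites.

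The strongest WT-only sites by mean −log10 q lay beside Gm8220, Hmgn2, Gm10000, Ktn1 and Ptger4. The site beside Gm8220, a predicted gene, was intergenic, 27238 bp from its start and 1593 bp wide (chr14:44834415-44836007), with pileups of 54 reads in WT1 and 46 in WT2. Peaks for p300, the bromodomain protein Brd3 and the transcription factor CEBPB overlapped it in both WT libraries of each antibody and in neither DKO library. The site beside Ktn1, which encodes the membrane protein kinectin, was intergenic, 90120 bp from the start, with 41 and 40 reads. The site at Ptger4, the gene of a prostaglandin E2 receptor, was 143 bp from the start, with 40 and 26 reads. Gm10000, a predicted gene, carried a site of 3021 bp at its promoter with 34 and 35 reads.

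Among the DKO-only sites, the strongest lay beside Depdc1b, Kif2b, Cyp1b1, Acin1 and Rasgef1b. The first of these, intergenic and 22475 bp from the start of Depdc1b (chr13:109082941-109084051), had pileups of 48 reads in DKO1 and 43 in DKO2. The site nearest Kif2b, which encodes a kinesin of the mitotic spindle, was 391933 bp away with 47 and 41 reads. Beside Cyp1b1, the gene of a cytochrome P450 that oxidizes steroids and xenobiotics, the site had 33 and 40 reads, and within 364 bp of a start of Acin1, which encodes an RNA splicing factor, it had 35 and 36. At Rasgef1b, an activator gene of Ras-type GTPases, an intronic site had 39 and 48 reads, and of the 5 it was the only one that overlapped a p300 peak, in DKO2, and Brd3 peaks, in DKO1 and DKO2. A nearest gene is named for position and was not shown to be the target of a distal site.

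One-genotype sites carried the other factors less often than shared sites. In the WT libraries, p300 peaks overlapped 13.2% and 9.85% of shared sites, 2.25% and 1.22% of WT-only sites and 0.98% and 0.566% of DKO-only sites. Brd3 peaks, which mark acetylated chromatin, overlapped 47.5% and 48.3% of shared sites, 4.8% and 4.65% of WT-only sites and 3.79% and 4.59% of DKO-only sites. CEBPB peaks overlapped 3.96% and 3.93% of WT-only and 4.59% and 4.38% of DKO-only sites, against 11.4% and 11.6% of shared sites. At sites with any other pattern of calls, the shares were also low in the WT libraries. They were 1.13% and 0.728% for p300, 3.51% and 3.73% for Brd3 and 2.59% and 2.62% for CEBPB. The DKO lists of these factors were shorter, with 8970 and 11549 Brd3 peaks against 31404 and 33072 in WT, and these shares were lower in them, except that p300 peaks of DKO2 overlapped 0.566% of DKO-only sites, as did those of WT2. At DKO-only sites the Brd3 peaks of DKO1 and DKO2 covered 0.283% and 0.37%. Peaks of H3K27me3 (117 to 553 per library) and histone H1 (281 to 315) overlapped none of the one-genotype sites, 0 of 6084 and 0 of 4593, but these lists were short.

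Sites of one genotype were grouped along the chromosomes. For 747 of 6079 WT-only sites (12.3%) the next site along the chromosome was also WT-only, where WT-only sites made up 5.83% of all sites, and for 1.78% it was DKO-only. Of 4592 DKO-only sites with a next site, 528 (11.5%) were followed by another DKO-only site, where they made up 4.4%, and 2.61% by a WT-only site. Chaining sites of a class within 12.5 kb put 2061 WT-only sites (33.9%) into 882 groups of 2 or more, and 1522 DKO-only sites (33.1%) into 633 groups. Groups of 5 or more numbered 16 and 15. All 104443 sites chained at this distance formed 25825 domains, and no share was computed for other sets of sites of the same size.

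The WT-only group with most sites had 12 over 32.4 kb at Lama5 (chr2:179938916-179971297), the gene of the laminin α5 chain of basement membranes. Groups of 7 followed beside Cysltr2, Trps1, Fosl2 and Dkk3, which encode a leukotriene receptor, a GATA-type zinc finger repressor, the AP-1 subunit FRA2 and a secreted protein of the Dickkopf family. The DKO-only group with most sites had 11 over 41.6 kb near Fignl1 (chr11:11726056-11767649), and the shared site in Ddc whose sequence is printed above lay inside its span. Groups of 8 beside Rbpms, an RNA-binding protein gene, and of 7 beside Arid5b, Etv4, Ldb2 and Gm7957 came next.

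At most of the 10 genes with the highest number of WT-only sites nearest to them, the length covered by peaks was shorter in DKO. Lama5 had 12 WT-only sites among 28, none DKO-only, and its peaks covered 13.1 and 12.8 kb in WT against 4.88 and 4.38 kb in DKO. At Fndc3a, 12 of 25 sites were WT-only and coverage was 11.2 and 10.3 kb against 4.53 and 4.68 kb. Trps1, with 11 of 27, had 15.0 and 15.1 kb against 5.41 and 6.91 kb. At these genes, no DKO library reached a WT library. Glis3, which encodes a zinc finger transcription factor, had 15 of 64, Utrn, the gene of the dystrophin relative utrophin, 15 of 94, and Fat4, the gene of a large protocadherin, 10 of 53. The genes 2010111I01Rik and Lpp had 16 each, among 108 and 276 sites. At Lpp, which encodes a LIM protein of focal adhesions, coverage overlapped between genotypes, with 120 and 113 kb in WT and 102 and 115 kb in DKO. Col5a1, the gene of a fibrillar collagen chain, had 11 of 134 and Myc, the gene of a growth-regulating transcription factor, 10 of 171. Since these genes were ranked by the one-genotype sites, their coverage describes them and tests nothing.

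DKO-only sites were most numerous beside Rbms3, with 28 of 212 sites. Peaks nearest this RNA-binding protein gene covered 86.4 and 82.0 kb in WT and 114 and 117 kb in DKO. Beside 5930403N24Rik, 16 of 121 sites were DKO-only and coverage was 48.8 and 50.7 kb against 74.7 and 79.4 kb. Col12a1, the gene of a fibril-associated collagen, had 15 of 114 and covered 36.0 and 35.1 kb against 51.4 and 57.6 kb. Ldb2, whose product bridges LIM domain transcription factors, had 12 of 47 and the largest relative contrast of the 10, 9.48 and 9.07 kb against 23.2 and 25.5 kb. Nuak1, a kinase gene of the AMPK family, had 15 of 90, and 1500009L16Rik and Gm5148 had 13 of 48 and 13 of 50, with no WT-only site. Pdzrn3, a ubiquitin ligase gene, had 13 of 91, and Foxp1, a forkhead factor gene, 12 of 149. At Rnd3, the gene of a small GTPase, 12 of 77 sites were DKO-only, but coverage overlapped between genotypes, 39.9 and 36.7 kb in WT and 39.3 and 41.3 kb in DKO.

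Sites were also counted in windows of 1 Mb. The window with most WT-only sites was chr7:119000001-120000000, with 28 among 319 sites, 9 of them nearest Dkk3 and 8 nearest Tead1, the gene of a transcription factor that works with YAP. It also had 12 DKO-only sites. In chr19:28000001-29000000, there were 19 WT-only sites among 77, 15 of them beside Glis3, against 2 DKO-only sites. The window of Fosl2, chr5:32000001-33000000, had 18 of 112, and those with 2010111I01Rik on chromosome 13 and Adk on chromosome 14 had 17 each. For DKO-only sites the leading window was chr10:83000001-84000000, beside Nuak1 and 1500009L16Rik, with 28 of 148 against 3 WT-only sites. The window around Gm5148 and Fgf2, chr3:37000001-38000000, had 23 of 140 against 1, and those of Rbms3, 5930403N24Rik and Col12a1 had 20, 18 and 18.

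The AP-1 motif TGANTCA was more frequent at distal WT-only than at distal DKO-only sites. Within 250 bp of the summit, on both strands, it occurred at 26.7% of 5561 WT-only, 20.6% of 4319 DKO-only and 24.2% of 27609 shared distal sites, and at 23.3% of all 84885 distal sites. At positions 5000 bp away the shares were 15.7%, 14.8% and 14.9%. Sites called in 1 library alone had the same order, with 23.8% in WT1, 24.0% in WT2, 20.7% in DKO1 and 19.7% in DKO2. Mean GC content of the windows was 45.2% at WT-only and 44.7% at DKO-only sites. The TEAD motif GGAATG, in contrast, occurred at 28.9% of WT-only and 30.3% of DKO-only sites, and the C/EBP motif TTGCNNAA at 21.7% and 21.4%. Neither set of letters can contain or be contained in the AP-1 motif. The motif shares are descriptions of sites that were chosen by their calls, without a test.

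At shared sites, the strength of the mark was compared by 2 measures, fold enrichment and relative pileup, each centered on the library median and fitted with limma over all shared sites. By fold enrichment, 1641 sites (3.89%) were higher and 1527 (3.62%) lower in DKO at a Benjamini-Hochberg adjusted p of 0.05, out of 42234. Without centering, the split was 1177 higher and 2367 lower. By relative pileup, 698 (1.65%) were higher and 619 (1.47%) lower, out of 42226 with a solved pileup in each library. Both measures passed in the same direction at 368 sites (0.872%) that were higher and 283 (0.67%) that were lower. Before adjustment, a p under 0.05 was reached by 5028 and 4890 sites for fold enrichment, and by 3392 and 3957 for pileup.

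Local background moved with the fold enrichment calls. Relative to its median change, the background at sites with higher fold enrichment fell by a median of 0.62 on the log2 scale, and at those with lower fold enrichment it was up by 0.72. Since fold enrichment is pileup over background, each with 1 added, both terms enter such a call. Pileup at the same sites changed by a median of 0.41 and -0.39, in the direction of the call at 92.6% and 91.5% of them. At sites called by pileup the median background changes were 0.08 and -0.09. Across the shared sites of 2 libraries, log2 backgrounds correlated at r = 0.674 (WT) and 0.707 (DKO) within a genotype and at 0.225 to 0.232 between genotypes, whereas log2 pileups correlated at 0.915 and 0.928 within and at 0.875 to 0.878 between. These coefficients are across sites, which are not independent replicates. The labels give 1 MEF input library per genotype, and if it set the background of both libraries of that genotype, its sampling error would enter both in the same way. Its part in the fold enrichment calls was not tested. Pileup itself does not use the input, although in a site with several peaks it was read at the peak of highest fold enrichment. Sites are therefore given below with both tests.

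**Figure D2:**
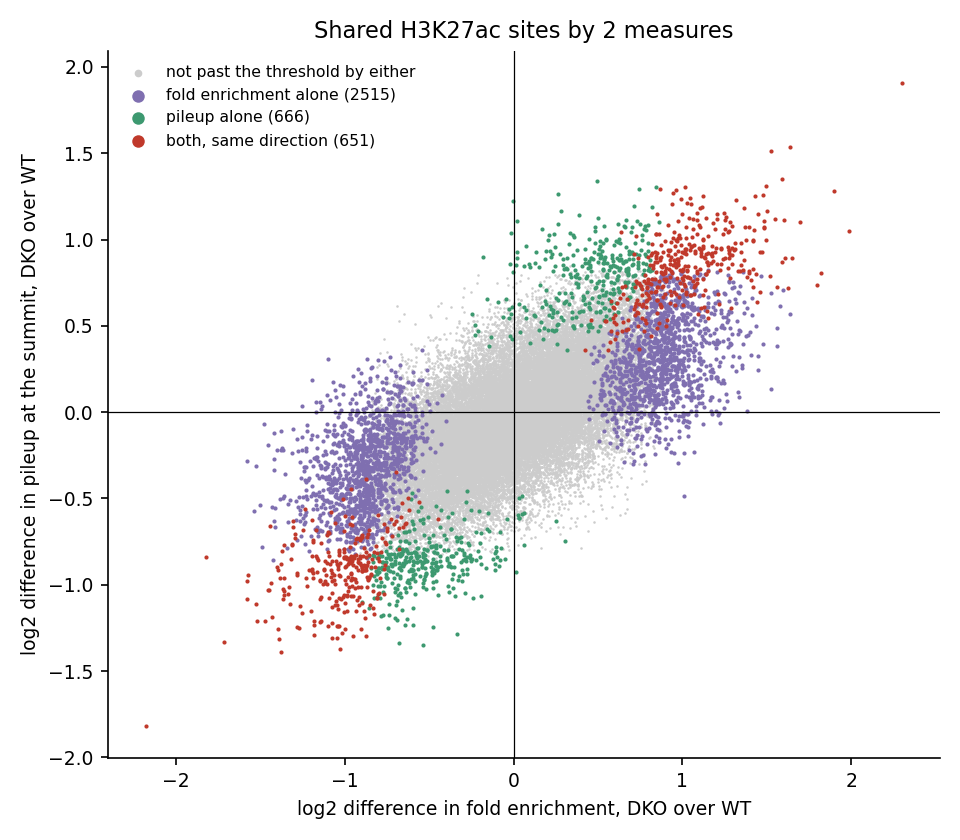
Log2 difference between DKO and WT in fold enrichment (horizontal axis) and in relative pileup (vertical axis) for each shared H3K27ac site, colored by the measures that passed an adjusted p of 0.05 in limma. Calls by fold enrichment alone extend along the horizontal axis, whereas the 368 and 283 sites called by both lie in the upper right and lower left.

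Promoters were less often called than distal sites when pileup was the measure. Of 14618 shared promoter sites, 88 (0.602%) were higher and 144 (0.985%) lower by pileup, against 610 (2.21%) and 475 (1.72%) of 27608 distal sites. By fold enrichment the promoter counts were 525 (3.59%) and 707 (4.83%) of 14625. For distal sites the counts were 1116 (4.04%) and 820 (2.97%) of 27609. Both measures passed at 48 promoters (0.328%) that were higher and 74 (0.506%) that were lower in DKO, and at 320 (1.16%) and 209 (0.757%) distal sites.

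Fold enrichment differed most at 20 promoters, 10 in each direction. Ppp2r5c, the gene of a regulatory subunit of protein phosphatase 2A, had fold enrichments of 25.1 and 25.8 in WT and 7.0 and 9.26 in DKO, a log2 difference of -1.58 ± 0.21 (SE, limma adjusted p = 0.00015). Its relative pileup did not pass (adjusted p = 0.34). Cox6a1, which encodes a subunit of cytochrome c oxidase, had 5.23 and 5.16 in WT and 13.2 and 13.6 in DKO, a log2 difference of 1.45 ± 0.24 (adjusted p = 0.000955, by pileup 0.572). For Oxa1l, the gene of an insertase of the inner mitochondrial membrane, the values were 17.2 and 10.7 against 37.6 and 28.6 (adjusted p = 0.000403, by pileup 0.324). The groups did not overlap in fold enrichment at any of the 3. The other promoters of this kind were higher in DKO at C1qtnf5, Tmem106a, Trmu, Fam178a, Wdr13, Mfap4, Zfp219 and Gm9967 and lower at Echdc2, Isca2, Znhit3, Bard1, Pask, R3hcc1, Itga1, Exoc2 and Stk10.

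Of these 20 promoters, only Mfap4, Echdc2, Bard1 and R3hcc1 also passed by pileup. Mfap4, the gene of a glycoprotein of elastic microfibrils, had fold enrichments of 8.37 and 6.30 in WT and 18.4 and 16.5 in DKO, a log2 difference of 1.34 ± 0.23 (limma adjusted p = 0.00105, by pileup 0.0157). Bard1, which encodes the partner of BRCA1, had 11.3 and 10.3 in WT and 4.16 and 3.33 in DKO, a log2 difference of -1.46 ± 0.26 (adjusted p = 0.00149, by pileup 0.0096). R3hcc1 fell from 20.8 and 23.0 to 6.69 and 8.59 (adjusted p = 0.000406, by pileup 0.0385). Itga1, the gene of the collagen-binding integrin subunit α1, missed the pileup threshold narrowly (adjusted p = 0.0501).

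Among promoters that passed by both measures, listed after the values had been seen, the 10 with the largest falls in pileup were led by Itih2, a gene of the inter-α-trypsin inhibitor family, with 66 and 41 reads in WT and 24 and 25 in DKO (log2 difference -1.29 ± 0.21, SE, limma adjusted p = 0.000288). Prrx2 (ENSMUSG00000039476.6, chr2:30700836-30701986), a paired-related homeobox gene of limb and craniofacial mesenchyme, had pileups of 35 and 27 reads in WT and 14 and 19 in DKO, a log2 difference of -1.12 ± 0.24 (adjusted p = 0.00661). Prdm16, the gene of a zinc finger regulator of brown fat, had 35 and 33 against 16 and 22 (-1.06 ± 0.24, adjusted p = 0.00756). At Mxi1, which encodes an antagonist of MYC, the values were 41 and 38 against 22 and 21 (-1.08 ± 0.22, adjusted p = 0.00375). Both WT libraries stood above both DKO libraries at each. Acacb, 2610029I01Rik, Lrrc8b, Tsen15, Sync and Cd24a completed the 10, and leaving out 1 library ended the pileup call at 7 of them, Acacb, Prrx2, Lrrc8b, Prdm16, Tsen15, Sync and Cd24a.

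The 10 promoters with the largest rises among those higher by both measures were led by 8030423F21Rik. At this gene (chr5:53006778-53010274) the pileups were 31 and 24 reads in WT and 74 in both DKO libraries, a log2 difference of 1.23 ± 0.18 (SE, limma adjusted p = 7.47e-05). Fgfbp3, which encodes a binding protein of fibroblast growth factors, had 42 and 37 against 100 and 88 (1.05 ± 0.16, adjusted p = 9.39e-05). Ptn, the gene of the growth factor pleiotrophin, had 33 and 24 against 63 and 57 (0.89 ± 0.19, adjusted p = 0.00648), and Mmp11, the gene of the matrix metalloproteinase stromelysin-3, 22 and 26 against 53 and 51 (0.92 ± 0.21, adjusted p = 0.00866). The signaling gene Rgs12, an inhibitor of G protein signaling, had 50 and 39 against 92 and 105 (0.95 ± 0.15, adjusted p = 0.00024). The groups overlapped at none of them. Gm17582, Olfr543, Fam164c, Heg1 and Trpv2 were the others, and Fam164c, Heg1 and Trpv2, with pileups of 18 or fewer in WT, passed only narrowly (adjusted p = 0.045, 0.0423 and 0.0423), and each lost the pileup call without any one of 3 of the 4 libraries. Gm17582, Mmp11 and Ptn each lost the pileup call without 1 or 2 of the libraries.

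**Figure D3:**
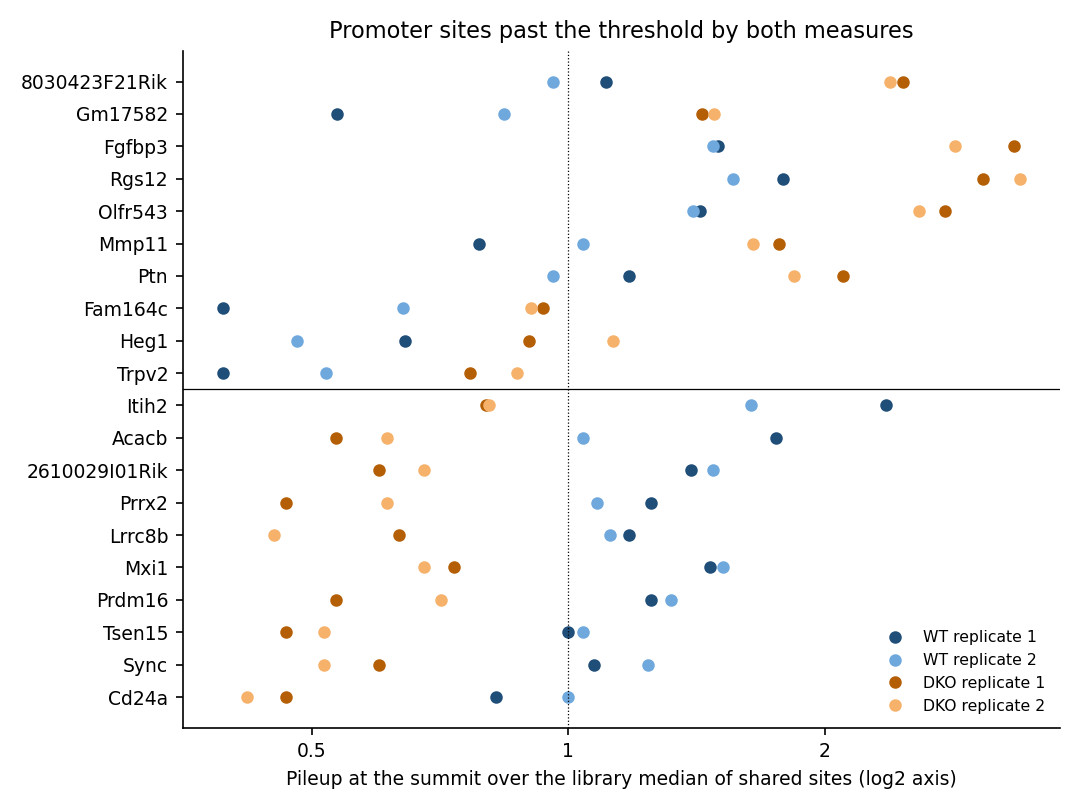
Pileup at the summit over the library's median at shared sites (horizontal log2 axis) for the 20 promoter sites with the largest pileup differences among those called by both measures, with 1 point per library. Both DKO points lie on the same side of both WT points at each of the 20, which were chosen because they passed both tests.

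The leading distal sites that passed by both measures differed by more than the leading promoters. The largest rise was in an intron of Galnt10, which encodes an enzyme of O-glycosylation (chr11:57507150-57510982), where pileups were 13 and 25 reads in WT and 75 and 81 in DKO (log2 difference 1.91 ± 0.23, SE, limma adjusted p = 6.28e-06). An intronic site of Ddc, the gene of aromatic L-amino acid decarboxylase, had 20 and 14 reads against 65 and 48 (1.53 ± 0.23, adjusted p = 7.47e-05). Sites of Mylk, the myosin light chain kinase gene, with 12 and 16 against 39 and 39, and of Fhl2, a LIM protein gene of the actin cytoskeleton, with 15 and 20 against 49 and 48, also rose (adjusted p = 0.00204 and 0.00107). Auts2, Hs3st5, Kif2b, Bmper, Triml1 and Ppargc1b were nearest to the other 6 leading sites that were higher.

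The largest fall was in an intron of Tprg (chr16:25384808-25385722), from 52 and 35 reads in WT to 13 and 15 in DKO (log2 difference -1.82 ± 0.24, SE, limma adjusted p = 2e-05). In an intron of Prrx2, 3398 bp from the nearest start, a site fell from 32 and 43 reads to 16 and 18 (-1.33 ± 0.24, adjusted p = 0.00116), in the same direction as its promoter. Prdm16 likewise had a distal intronic site, with 30 and 26 reads against 13 and 13 (-1.31 ± 0.24, adjusted p = 0.00146). The site beside Dpt, the gene of the matrix protein dermatopontin, had 40 and 29 against 15 and 17 (-1.30 ± 0.24, adjusted p = 0.00146). At each of these 4 sites, both DKO pileups were below both WT pileups. Ttc3, St8sia2, 4922501C03Rik, Dtwd1, Snx13 and Pappa were nearest to the others. Without DKO2, the pileup calls beside Bmper, Triml1, Ppargc1b and Pappa were lost (adjusted p = 0.0943, 0.0504, 0.0834 and 0.0653).

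The share of sites with the AP-1 motif also differed between the directions of the pileup calls. It occurred at 159 of 475 distal sites with lower pileup in DKO (33.5%) and at 97 of 610 with higher pileup (15.9%), against 24.2% of all shared distal sites and 15.4% to 17.1% at positions 5000 bp away. Over the 8 other settings of the pileup fit, the share ranged from 30.2% to 33.5% of the lower sites and from 10.4% to 18.2% of the higher sites. Among the distal sites called by both measures the shares were 27.3% of 209 lower and 17.2% of 320 higher. The C/EBP motif had the opposite order, 17.1% of lower and 22.8% of higher sites by pileup, against 19.9% of all shared distal sites, but the shares at positions 5000 bp away were in the same order, 18.7% and 22.3%.

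For the gene lists, each site was assigned to the nearest protein-coding gene. WT-only sites were 6.9% of the 623 sites nearest to genes of TGF-β and BMP signaling and 6.43% of 482 nearest to AP-1 and immediate early genes, against 5.83% of all sites, while DKO-only sites were 2.41% and 1.87%, against 4.4%. The reverse held for the extracellular matrix list, where 44 of 1230 sites (3.58%) were WT-only and 81 (6.59%) DKO-only. The 33 matrix genes differed among themselves, since Col12a1, Tnc and Col3a1 held 15, 10 and 9 of the 81 DKO-only sites and Col5a1 held 11 of the 44 WT-only sites. For the actomyosin list the shares were 4.6% and 2.65%, for the fibroblast transcription factors 6.51% and 5.94%, for inflammatory genes 5.82% and 2.91%, for the enzymes and readers of H3K27 modification 5.11% and 4.38%, for HMG and linker histone genes 5.81% (9 sites, of which 3 were at the deleted gene Hmgn2) and 1.29%, and for Hox genes 7.38% and 4.7%. With the same number of peaks of lowest p in each library, an alternative chosen after the data had been seen, the shares were 2.87% WT-only and 9.13% DKO-only for the matrix list and 5.08% and 2.65% for the AP-1 list and 4.88% and 3.7% for TGF-β and BMP signaling, against 4.56% and 5.67% of all sites. Under that setting the DKO-only share also exceeded the WT-only share for the fibroblast transcription factors (7.88% against 4.42%), the actomyosin list (4.71% against 3.97%) and the H3K27 enzymes and readers (5.36% against 3.45%). Differences of this size rest on few genes per list and were not tested.

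**Figure D4:**
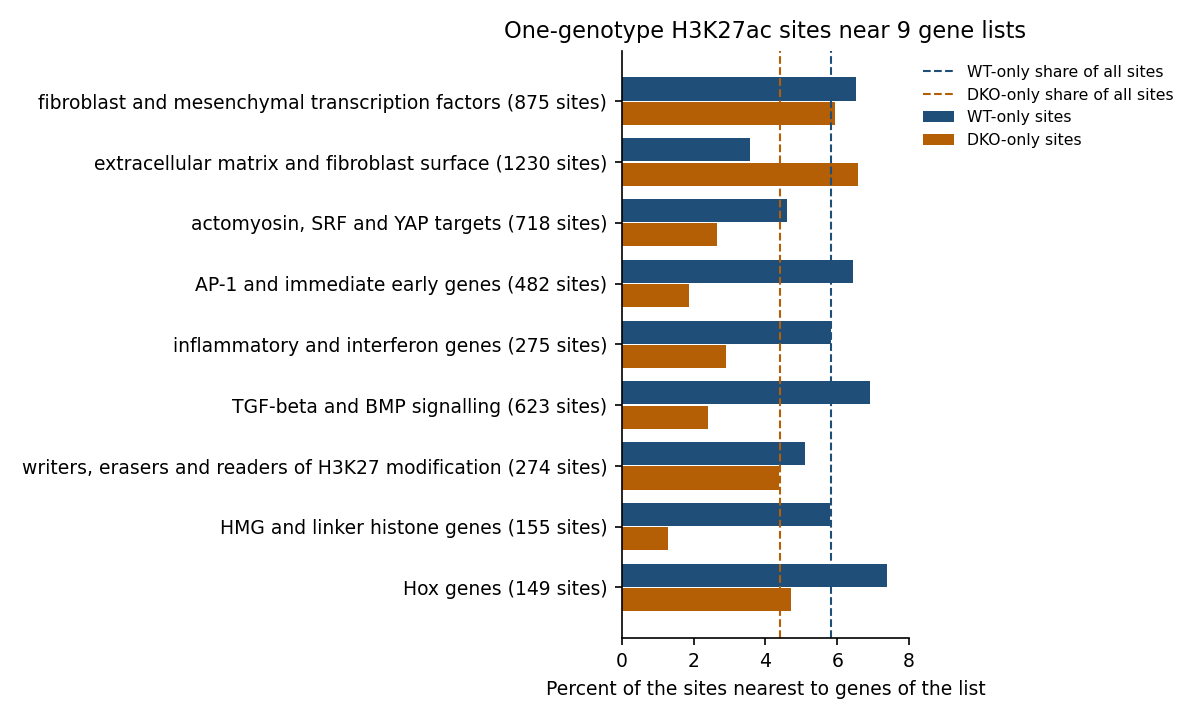
Percent of the H3K27ac sites nearest to the genes of each of 9 lists that were WT-only or DKO-only (horizontal axis), with the share among all sites, 5.83% and 4.4%, drawn as lines. With all peaks, as plotted, the extracellular matrix list is the only one of the 9 in which the DKO-only share exceeds the WT-only share, whereas it is 1 of 4 when every library has the same number of peaks.

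Shared sites near genes of the extracellular matrix were more often higher than lower by pileup. Near the list, 20 of 466 shared sites were higher by pileup (4.29%, against 1.65% of all shared sites) and 5 lower (1.07%, against 1.47%). Without DKO1 the counts were 3 and 3, and without DKO2 they were 5 and 2, while without WT1 or WT2 they were 15 and 2 or 13 and 4. Loxl2, which encodes a lysyl oxidase that crosslinks collagen and elastin, had 6 of the 20 and Fbln5, the gene of an elastic fiber protein, 5. The Loxl2 promoter had pileups of 65 and 70 reads in WT and 147 and 149 in DKO, a log2 difference of 0.93 ± 0.13 (SE, limma adjusted p = 2.13e-05), and passed neither way by fold enrichment (adjusted p = 0.0533). The Fbln5 promoter had 32 and 32 against 57 and 57 (0.63 ± 0.19, adjusted p = 0.0492, by fold enrichment 0.0256). Mmp2, the gene of the gelatinase A, went the other way, from 48 and 41 reads to 23 and 35 (-0.85 ± 0.21, adjusted p = 0.0171, by fold enrichment 0.0106). The call at Loxl2 held with any library left out, that at Fbln5 was lost without any one of the 4 (adjusted p from 0.0535 to 0.261), and that at Mmp2 without WT1 or DKO1 (adjusted p = 0.0551 and 0.281). A DKO-only promoter site was found at Eln, the elastin gene, with 15 and 19 reads. By fold enrichment alone, Fbln2 and Pdgfrb were higher and Col1a2 lower. At Col1a2 relative pileup went the other way without passing (0.36 on the log2 scale, adjusted p = 0.0658), while the local background was 2.94 and 2.33 in WT and 7.14 and 7.31 in DKO. Of the 31 genes with a shared promoter, 2 were higher and 1 lower by pileup, where 0.903% and 1.47% of 10628 genes with a shared promoter were called. By fold enrichment 5.59% and 7.49% of those genes were called, and 2.39% and 1.21% of all 22232 genes had a WT-only or a DKO-only promoter site, shares against which the single calls in the lists below are to be read.

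Among the fibroblast transcription factors, 3 of 23 genes with a shared promoter were lower by pileup and none was higher. Besides Prrx2, these were the T-box genes Tbx15, with 94 and 67 reads in WT and 57 and 57 in DKO (log2 difference -0.68 ± 0.15, SE, limma adjusted p = 0.00767), and Tbx18, with 61 and 66 against 48 and 40 (-0.74 ± 0.17, adjusted p = 0.0113). All 3 were also lower by fold enrichment, but their pileup calls were lost without DKO1 at Prrx2 (adjusted p = 0.098), without WT1 at Tbx15 (0.126) and without WT2 or DKO2 at Tbx18 (0.113 and 0.156). By fold enrichment alone, Runx2 was lower (adjusted p = 0.0185) and Gli2, Nfia and Twist2 were higher (0.044, 0.0342 and 0.0249), although the relative pileup differences of Runx2 (0.02) and Twist2 (-0.09) had the opposite sign. Of the 306 shared sites nearest to genes of the list, 8 were higher by pileup (2.61%, against 1.65% of all shared sites) and 9 lower (2.94%, against 1.47%), so the list had nearly equal numbers in both directions. Near Prrx2, Tbx15 and Tbx18 lay 8 of the 9 lower sites, and the 8 higher ones were spread over 7 genes. Without DKO2, none was higher and 9 were lower, and without DKO1, 3 and 5. WT-only promoter sites were found at Osr2, Runx2 and Tbx18, and a DKO-only one at Nfia. Those at Runx2, Tbx18 and Nfia lay less than 1000 bp from a shared promoter site of the same gene. Of the 12 muscle markers, Mef2c, a transcription factor gene, was the only one with a called promoter, and it moved in the same direction as these T-box genes. Its shared promoter was lower by fold enrichment (-1.09 on the log2 scale, limma adjusted p = 0.0123) but not by pileup (adjusted p = 0.186). A WT-only promoter site less than 1000 bp from it had 12 and 12 reads. Myod1, Myf5 and Myog, which define skeletal muscle cells, had no called promoter in any library.

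The Hox list, the homeobox genes that pattern the body axis, had 4 of 25 genes with a lower and none with a higher shared promoter by pileup, and 4 of its 77 shared sites were lower (5.19%, against 1.47% of all shared sites). Hoxa9 and Hoxa10 share 1 of these sites. Under each of the 8 other settings of the fit, 3 or 4 shared sites near Hox genes were lower and 0 higher. A site shared by Hoxa9 and Hoxa10 had 39 and 34 reads in WT and 23 and 24 in DKO (log2 difference -0.84 ± 0.22, SE, limma adjusted p = 0.0255), and a second site of Hoxa9 had 38 and 40 against 18 and 20 (-1.24 ± 0.23, adjusted p = 0.00133). At Hoxc10 the pileups were 40 and 40 against 21 and 21 (-1.13 ± 0.22, adjusted p = 0.00248), and at Hoxc9 53 and 46 against 29 and 29 (-0.97 ± 0.20, adjusted p = 0.0032). Hoxa9, Hoxa10, Hoxc9 and Hoxc10 lie toward the posterior end of their clusters. Calls at the second site of Hoxa9, at Hoxc9 and at Hoxc10 held with any library left out, and that of the site shared by Hoxa9 and Hoxa10 was lost without any one (adjusted p from 0.0692 to 0.115). Of the 4 sites, the one of Hoxc9 also passed by fold enrichment (adjusted p = 0.00673). WT-only promoter sites lay at Hoxa10, Hoxa11 and Hoxb8, with between 10 and 19 reads, and a DKO-only site at Hoxd3 with 15 and 15. The one at Hoxb8 lay less than 1000 bp from the shared promoter site of Hoxb7. Stronger Hox promoters did not pass by either measure, such as the site shared by Hoxc5 and Hoxc6, with 110 and 125 reads against 122 and 123 (adjusted p = 0.572 by pileup and 0.0518 by fold enrichment).

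Genes of the AP-1 family themselves split. The Fos promoter rose from 73 and 70 reads in WT to 106 and 129 in DKO (log2 difference 0.51 ± 0.13, SE, limma adjusted p = 0.0227), and the Fosb promoter fell from 67 and 54 to 40 and 49 (-0.65 ± 0.17, adjusted p = 0.027). Fos did not pass by fold enrichment (adjusted p = 0.0763) and Fosb did (0.033). The pileup call at Fos was lost without WT1 or DKO2 (adjusted p = 0.0784 and 0.316) and that at Fosb without WT1 or DKO1 (0.134 and 0.232). Junb, with 92 and 73 reads against 104 and 83, Fosl2, with 118 and 88 against 87 and 98, and Ier2, with 104 and 90 against 94 and 124, passed by neither measure. Relative to the library medians, Junb and Ier2 overlapped between genotypes, whereas both DKO values of Fosl2 (2.90 and 3.16 times the median) were below both WT values (4.21 and 3.52). Jund and Klf6 were higher and Nr4a1 lower by fold enrichment alone. The promoters of all 23 genes were called in all 4 libraries.

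In the inflammatory list, Isg15, an interferon-induced ubiquitin-like modifier, had pileups of 18 and 16 reads in WT and 39 and 36 in DKO (log2 difference 0.94 ± 0.23, SE, limma adjusted p = 0.0173) and did not pass by fold enrichment (adjusted p = 0.0573). An Nfkb1 promoter site rose from 47 and 49 to 77 and 83 (0.53 ± 0.16, adjusted p = 0.0479), and no gene of this list was lower by pileup. Without DKO1 or DKO2, neither call held (adjusted p = 0.161 and 0.0678 for Isg15, 0.183 and 0.264 for Nfkb1), and the Nfkb1 call was also lost without WT1 (0.217). By fold enrichment alone, Stat2 and Cebpb were among the genes that were higher, and another promoter site of Nfkb1 was lower. The relative pileup of Cebpb differed by -0.05, against the direction of that call. A WT-only site of 16 and 15 reads lay at the Cebpb promoter, less than 1000 bp from its shared site.

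For TGF-β and BMP signaling, no promoter of 23 genes passed by pileup, while Bmpr1a, Id1 and Tgfbr1 were lower by fold enrichment. Of 268 shared sites nearest to its genes, 2 were higher (0.746%) and 6 lower by pileup (2.24%), against 1.65% and 1.47% of all shared sites. With quantile normalization the counts were 2 and 1. None of the 29 actomyosin genes passed by pileup, and by fold enrichment Actg1, Amotl2 and Cnn2 were among those higher and Myh9 was lower. Relative pileup had the opposite sign at Actg1 (-0.24) and Cnn2 (-0.06). Of the 20 genes of H3K27 writers, erasers and readers with a shared promoter, none passed by pileup, while Crebbp was higher and Eed, Hdac1 and Ncor1 lower by fold enrichment. At Eed, relative pileup was higher in both DKO libraries (0.17 on the log2 scale, adjusted p = 0.451). Of the 120 shared sites nearest to this list, 5 were higher by pileup (4.17%, against 1.65% of all shared sites) and 0 lower, with 4 of the 5 nearest Eed, 2 of them by both measures, and 1 nearest Brd3. Without DKO1 the counts were 2 and 0, without DKO2 1 and 1, and with no trend in limma 1 and 0. A WT-only promoter site lay at Brd2, and DKO-only ones at Hdac3 and Kat2b. In the HMG list, apart from Hmgn1 and Hmgn2, the only further promoter call was a WT-only site of Hmgb1 with 14 and 13 reads, while the promoter of Hmga2, with 127 and 91 reads against 117 and 119, passed by neither measure. Of 40 shared sites nearest to Hmga2, 1 was lower by pileup, and 3 WT-only and 2 DKO-only sites lay near this gene and 2 WT-only sites near Hmgn3.

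Peaks lie in domains, and the covered length of a domain was compared next. Sites within 12.5 kb of each other were stitched into 25825 domains, of which 17195 had a peak in each library. In DKO, 987 domains (5.74%) had more covered base pairs and 895 (5.21%) fewer at an adjusted p of 0.05 in limma. When a domain's widths were multiplied by pileup, 844 (4.91%) and 633 (3.68%) of them passed in the same direction by both. Of 2009 domains with at least 10 sites, 311 (15.5%) had more and 275 (13.7%) fewer, and of 6562 with 1 or 2 sites, 112 (1.71%) and 80 (1.22%).

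Domains with the largest gain lay in or nearest to Mylk, Fam38b (96136 bp away), Col12a1, Ror1 and Kif26b. The domain 295424 bp from Col12a1 (chr9:79117812-79165353, 47.5 kb) had 0.390 and 0.543 kb covered in WT and 3.81 and 4.41 kb in DKO, a log2 difference of 3.15 ± 0.23 (SE, limma adjusted p = 0.00174). In Mylk (chr16:34899831-34910172), coverage was 0.200 and 0.179 kb against 2.17 and 1.38 kb (3.19 ± 0.36, adjusted p = 0.00452). The domain of Ror1, a receptor of Wnt5a, had 0.194 and 0.335 kb against 2.38 and 1.60 kb (adjusted p = 0.00744), and that of Kif26b, a kinesin family gene, 0.647 and 0.160 kb against 2.31 and 2.26 kb (adjusted p = 0.0245, lost without DKO1 or DKO2 at 0.0823 and 0.074). In all 5 the WT libraries had no more than 2 peaks each. Covered length counts called bases only, so it does not measure an absence of the mark in WT. At the shared distal site inside the Mylk domain, pileups were 12 and 16 reads in WT and 39 and 39 in DKO, a log2 difference of 1.29.

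Domains with the largest loss lay beside Mtrf1l, Tmco5, Cd200, Gm6788 and Grem1. The first of them (chr10:4491616-4499181) overlapped Rgs17, an inhibitor gene of G protein signaling, and fell from 2.80 and 3.10 kb in WT to 0.192 and 0.170 kb in DKO, a log2 difference of -4.03 ± 0.28 (SE, limma adjusted p = 0.00174). The domain of Grem1, which encodes a secreted antagonist of BMPs (chr2:113596461-113609613), had 2.82 and 3.09 kb against 0.668 and 0.304 kb (-2.71 ± 0.38, adjusted p = 0.00828). Beside Cd200, the gene of a membrane glycoprotein, coverage was 2.01 and 1.98 kb against 0.241 and 0.245 kb (adjusted p = 0.00244), and beside Tmco5 3.29 and 2.75 kb against 0.283 and 0.353 kb (adjusted p = 0.00174). The domain beside Gm6788 lay in the 1 Mb window of Glis3 described above.

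The most covered domains changed little or by a moderate factor. Cald1, the caldesmon gene, lay in the most covered one, with 107 and 106 kb in WT and 95.9 and 101 kb in DKO (log2 difference -0.12 ± 0.03, SE, limma adjusted p = 0.0721). The domain of Col5a1, with 88.3 and 87.4 kb against 77.0 and 82.1 kb, passed narrowly (-0.14 ± 0.04, adjusted p = 0.048), and leaving out any of the 4 libraries ended the call (adjusted p from 0.092 to 0.204). The domain of Col4a1 and Col4a2, paired genes of basement membrane collagen, had more coverage in DKO, 69.8 and 63.3 kb against 87.2 and 96.5 kb (0.46 ± 0.05, adjusted p = 0.00305), as had the domain that spans Dut and Fbn1, the fibrillin gene, with 70.9 and 64.6 kb against 91.0 and 87.8 kb (0.40 ± 0.05, adjusted p = 0.00534). The Hoxb cluster, from Hoxb2 to Hoxb9, had 76.5 and 74.2 kb against 76.9 and 78.5 kb and did not pass (adjusted p = 0.507).

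**Figure D5:**
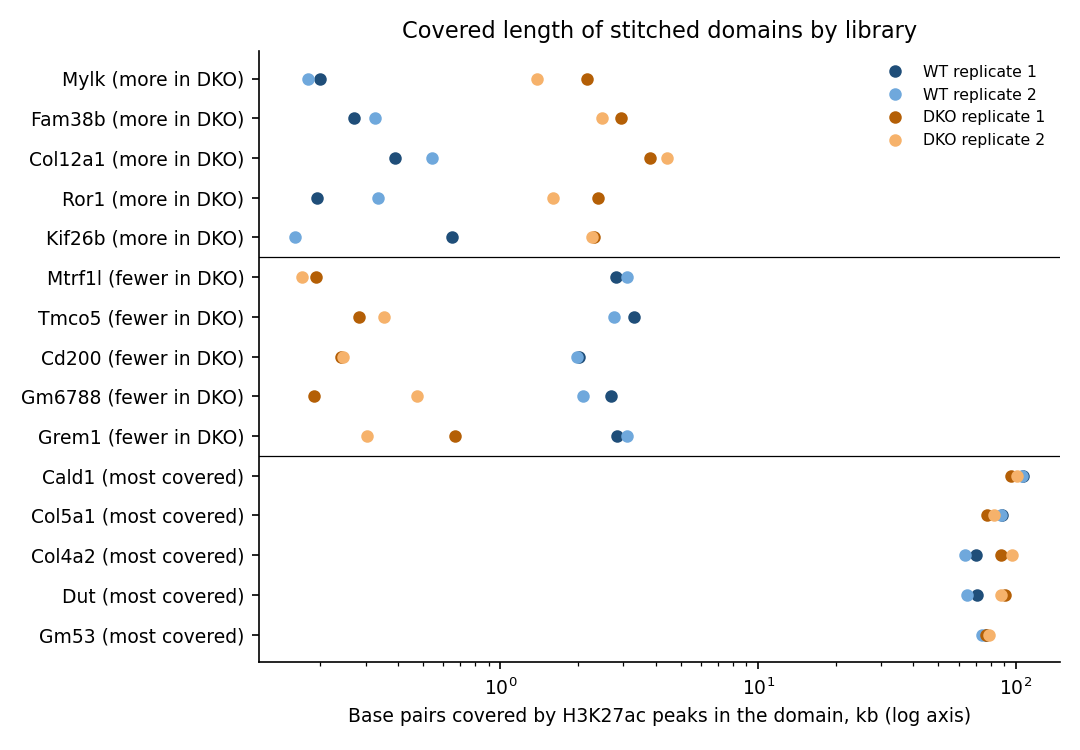
Length covered by H3K27ac peaks, in kb on a log axis, in each library for the 5 domains with the largest gain, the 5 with the largest loss and the 5 most covered domains. The WT and DKO points are far apart in the first 10, whereas in the most covered domains they differ by at most 0.46 on the log2 scale.

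The counts of shared sites changed when 1 library was left out. Without DKO1 or DKO2, 241 or 193 sites were higher by pileup in place of 698, and 260 or 274 were lower in place of 619, and without WT1 or WT2 the number lower was 412 or 368. For both measures together, the counts without DKO1 and DKO2 were 142 and 108 higher and 116 and 138 lower, and without WT1 and WT2 they were 179 and 178 lower. By fold enrichment, 929 and 1054 sites were higher without DKO1 and DKO2, and 1012 were lower without WT1. With 1 library in a genotype, the lone library is assumed to vary like the pair of the other. Domains with fewer base pairs numbered 277 and 256 without WT1 and WT2 and 546 and 582 without DKO1 and DKO2, and those with more numbered 647, 598, 370 and 401.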

How the data were processed

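H3K27ac was profiled by ChIP-seq in WT and DKO MEFs. The authors fixed and sonicated the cells and mapped reads to mm9 with BWA. Picard served to mark duplicates, reads in blacklisted regions were dropped, and MACS2 called peaks in each library. The submitters' processing notes name bcl2fastq 1.8.4, cutadapt 1.16, BWA 07.17 and MACS2 2.1.1.20160309. The deposited fold enrichment is the ratio of pileup to local background at the summit, each with 1 added, as MACS2 computed it. The −log10 p and −log10 q in the deposited lists are the authors' values at the summit, and the lowest −log10 q was 2.02. The deposited score, a whole number derived from −log10 q, was not used.

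For each summit, the whole-number pileup and the background that give both deposited values were solved, to within 0.0005 in −log10 p. Sites, promoters (GENCODE vM1) and domains were built with Python 3.11.15, pandas 2.3.3 and numpy 2.4.6. Log2 values were fitted with limma 3.58.1 in R 4.3.3, with a trend and no replicate block, and adjusted by the Benjamini-Hochberg method. A site took the highest fold enrichment of each library, and its pileup and background were read from that same peak. No further pseudocount was added, and sites not called in every library were not tested. Library values were compared with two-sided exact permutation tests in Python, and scipy 1.17.1 gave the Poisson probabilities used to solve the pileups. Sequences were read with samtools 1.23.1. Named sites followed rules, which took the targeted genes, for each direction the 10 promoters with the largest fold enrichment difference, the 5 strongest one-genotype sites, the 10 genes nearest to most of them, the 5 windows and the 5 domains, then the 5 most covered domains, and called members of the gene lists with up to 4 of the strongest others. Promoters and distal sites called by both measures were listed after their values were seen, as were all pileup fits. The members and lists were chosen with earlier results of these data known. The steps were tested on simulated data. Gene expression and HMGN occupancy were not analysed here. Results for some genes of the lists are not reported here.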

Additional observations from a re-analysis of the deposited data

How the results depend on the processing

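The part of depth in the one-genotype sites was not tested. With the same number of top peaks there were 4506 WT-only and 5599 DKO-only sites, the opposite order. Merging peaks within 1000 bp left 2849 WT-only and 1923 DKO-only sites, and kept 3 of the 5 strongest WT-only and 2 of the 5 strongest DKO-only sites, and with a library left out, the classes held 8703 to 16466 and 6972 to 12352 sites. By fold enrichment, 2367 sites were lower with no centring, the mean over a library's peaks gave 706 higher and 537 lower, pileup 698 and 619, limma with no trend 914 and 855, and leaving out a library 929 to 1476 and 1012 to 1157. By pileup, limma with no trend gave 143 and 158, quantile normalization 412 and 241, a −log10 q of at least 5 left 364 lower, and leaving out a library gave 193 to 628 and 260 to 412. For both measures these were 88 and 92, 232 and 139, 170 lower, and 108 to 302 and 116 to 179. Domains numbered 1791 and 1506 when width was multiplied by fold enrichment, 1647 with more when multiplied by pileup, and 370 to 647 and 256 to 582 with a library left out. The difference in median width was -3 bp with the same number of top peaks, and 23 to 36 bp with a library left out. The Cald1 domain turned to 0.0202 under width times fold enrichment, without passing the threshold in either case. The causes were not tested. Of the 20 promoters named by fold enrichment, 16 did not pass by pileup.

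Libraries with the same number did not deviate together (r = 0.00635 for fold enrichment, 0.00569 for pileup and -0.00429 for domains), so the numbers do not pair them. With a replicate block, 2221 sites were higher and 2073 lower by fold enrichment, 512 and 429 by pileup, 313 and 253 by both, and 1056 and 957 domains had more and fewer base pairs, and each count stayed within 1.5 times its value without the block.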
